A study of Mus musculus with 3 samples.

Results

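Il12rb2 and Il23r are neighbouring cytokine receptor genes on mouse chromosome 6. They were described here from all reads inside chr6:67230000-67465000 of the mm9 genome build, an interval of 235 kb set by position around both genes, which were picked with earlier results of these data known. It held 957 of 12281293 wild-type H3K4me3 reads, 1017 of 12075763 STAT3-deficient H3K4me3 reads and 1612 of 10126263 wild-type phospho-STAT3 reads on chromosomes 1 to 19, X and Y. H3K4me3 is a histone mark of active gene starts, and phospho-STAT3 is a phosphorylated form of the transcription factor STAT3. Chromatin immunoprecipitation and sequencing were done on 3 libraries, 1 per group, so genotype differences could not be checked against replicates or tested.

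Wild-type cells came from Stat3fl/fl FoxP3-GFP mice, which carry a conditional Stat3 allele without Cre. The STAT3-deficient cells came from Stat3fl/fl FoxP3-GFP, CD4-Cre mice, in which Cre driven by CD4 regulatory sequence deletes the allele in T cells. FoxP3-GFP is named for all groups. Sorted naive CD4 T cells of both genotypes were cultured for 72 h on anti-CD3 and anti-CD28 with TGF-b at 2.5 ng/ml and IL-6 at 10 ng/ml, while IFN-g, IL-2 and IL-4 were blocked by antibodies. All cells, the wild-type ones included, then received IL-6 again for 1 h. The number of mice behind each library and their ages are not stated in the labels. Neither Th17 markers nor other genes of the IL-12 and IL-23 pathway could be placed on mm9 with the gene table at hand, which is of another build, so the labelled cell type was not checked. Stat3 could not be placed either, so the loss of the gene was not checked in these reads.

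Il23r encodes the IL-23-specific chain of the IL-23 receptor. IL-23 acts through STAT3 and sustains Th17 cells, the helper T cells that make IL-17. Il12rb2 encodes the signal-passing chain of the IL-12 receptor, which works through STAT4 and favours the Th1 state. Both chains pair with the shared chain Il12rb1, and both belong to the same receptor family.

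On mm9, Il12rb2 lies near 67241000 to 67326000 and Il23r near 67373000 to 67442000, with 47 kb between them. These ends are given to the nearest kb. RefSeq places both genes on the minus strand, so each upper end is the 5′ end and the 5′ end of Il12rb2 faces the 3′ end of Il23r. In the RefSeq order on GRCm38.p6 only a small nucleolar RNA and pseudogenes lie between them. Exons and introns were not placed on mm9, so sites are given by their distance from the 5′ ends.

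Both promoters carry phospho-STAT3 reads, and the letters upstream of the starts differ between them. The 250 bases before each RefSeq start are shown here because the genotype comparison turns on these ends. They are from GRCm38.p6, minus strand, at chr6:67376189-67376438 for Il12rb2 and chr6:67491856-67492105 for Il23r, coordinates which are not those of the mm9 reads. Capitals mark matches to the motifs searched.
Il12rb2: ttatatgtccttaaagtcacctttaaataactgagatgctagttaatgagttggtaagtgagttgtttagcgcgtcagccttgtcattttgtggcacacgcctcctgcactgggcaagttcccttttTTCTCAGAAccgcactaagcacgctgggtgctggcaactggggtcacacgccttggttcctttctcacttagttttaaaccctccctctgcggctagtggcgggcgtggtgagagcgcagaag
Il23r: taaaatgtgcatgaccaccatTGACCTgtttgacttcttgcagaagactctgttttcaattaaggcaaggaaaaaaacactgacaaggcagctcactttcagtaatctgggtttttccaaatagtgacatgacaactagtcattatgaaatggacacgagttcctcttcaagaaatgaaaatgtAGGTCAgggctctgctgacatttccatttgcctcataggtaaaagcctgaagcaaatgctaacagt
The letters searched on both strands were TTCNNNGAA and TTCNNNNGAA (STAT), TGANTCA (AP-1) and AGGTCA (ROR). AGGTCA is the core of the motif of ROR receptors, the family of the Th17 factor RORgt, and is not specific to them. These motifs do not contain one another. In Il12rb2 the only match was TTCTCAGAA, which starts 123 bases before the gene start, and 7.02% of 32851 RefSeq promoter windows of this length hold TTCNNNGAA. In Il23r the matches were TGACCT at 229 and AGGTCA at 66 bases before the start. Of all windows, 14.0% hold AGGTCA on either strand and 1.36% hold 2 or more matches. TTCNNNNGAA and TGANTCA, held by 5.85% and 6.75% of windows, were in neither sequence. The Il12rb2 window was 50% G and C with 10 CpG pairs, and that of Il23r was 39.6% with 1 pair, against a median of 52.4% and 6 pairs over all windows. A match of letters is a description and shows no binding.

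The genotype comparison asks whether the H3K4me3 mark at both genes depends on STAT3. At Il12rb2 the mark was a compact peak in both genotypes, with no difference detectable within 2 kb. At Il23r a low level in wild-type cells was lower in STAT3-deficient cells, down to or below the average density of the library. No H3K4me3 region was called at Il23r, with the libraries pooled or with either of them alone, so its mark was weak in both.

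Across the interval, H3K4me3 was sparse apart from the Il12rb2 5′ end. In 47 consecutive bins of 5 kb, the wild-type H3K4me3 library ranged from 0 to 60 reads with a median of 18, and the STAT3-deficient library from 0 to 83 with a median of 21. The highest bin of both was 67325000 to 67329999, at the Il12rb2 5′ end. In the phospho-STAT3 library the bins ranged from 0 to 162 reads with a median of 26, and the highest was 67430000 to 67434999, inside Il23r. A stretch of 6823 bp above the Il23r 5′ end, from 67444793 to 67451615, held no read of any library. It lies outside the 4 kb counted around that end.

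**Figure D1:**
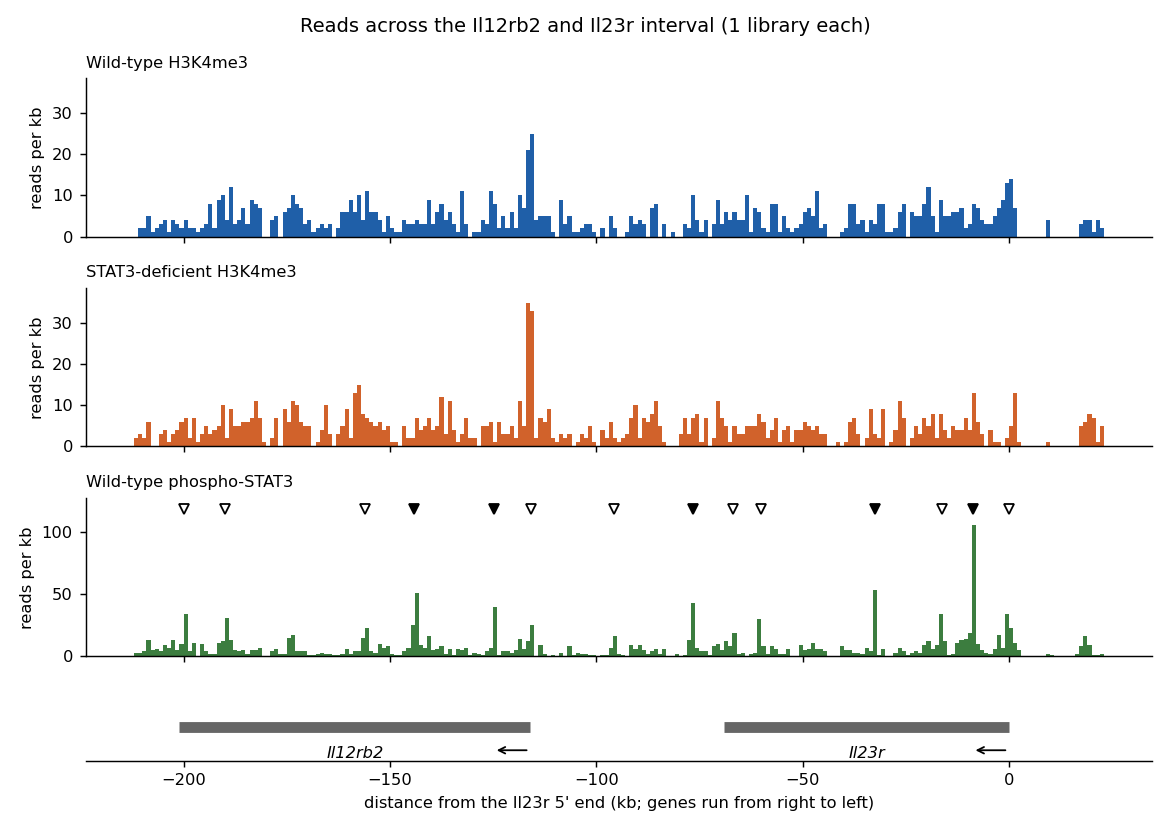
Reads per kb (vertical axes) against the distance in kb from the Il23r 5′ end (horizontal axis) for both H3K4me3 libraries (wild-type above STAT3-deficient) and the phospho-STAT3 library. Triangles mark the 14 phospho-STAT3 sites, filled for the 5 strong ones, and grey bars show the genes. The only tall H3K4me3 peak is at the Il12rb2 5′ end, while phospho-STAT3 peaks are spread over both genes.

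Regions of H3K4me3 were called after pooling the libraries of both genotypes, from 200 bp windows with at least 12 reads. The interval held 1 region, of 800 bp, from 67325600 to 67326399, centred on the Il12rb2 5′ end. Wild-type reads there numbered 39 and STAT3-deficient reads 52. Regions that reached 50 pooled reads, 10971 over the genome, are termed marked. To compare genotypes, the median log2 ratio of marked regions was set to 0, which hides any change common to all of them. On that scale the log2 ratio of STAT3-deficient over wild-type reads in the Il12rb2 region was 0.12 (95% interval -0.51 to 0.76). The intervals are exact and cover counting error only. A region was called different where the ratio was at least 2-fold and its interval left out 0, which 1.01% of marked regions passed as higher and 1.16% as lower. The Il12rb2 region passed in neither direction. With 91 pooled reads it was small, since marked regions had a median of 134, and 28.5% of them held fewer reads than it did.

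Within 2 kb of the Il12rb2 5′ end, 57 wild-type and 75 STAT3-deficient reads were counted. An even spread over the mappable genome gives 23.2 and 22.9 reads in 4 kb, so the window stood 2.45-fold and 3.28-fold over that level. The log2 ratio was 0.10 (-0.42 to 0.62) after scaling by marked regions, and by library totals it was 0.42 (-0.10 to 0.94). Both intervals include 0, so no difference was detectable at this depth, and differences up to the ends of these intervals are possible. With 1 kb on either side, 46 and 68 reads gave 0.27 (-0.29 to 0.84) and, by library totals, 0.59 (0.03 to 1.16), the only such interval at this end that left out 0.

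Within 2 kb of the Il23r 5′ end there were 43 wild-type and 20 STAT3-deficient reads, 1.85-fold and 0.875-fold the even level. Against that level the wild-type library was modestly raised and the STAT3-deficient library was not. The interval's own background was lower, at 15.3 wild-type and 16.1 STAT3-deficient reads per 4 kb, and both counts were above it. The log2 ratio was -1.40 (-2.24 to -0.60) after scaling by marked regions, or 2.64-fold lower in STAT3-deficient cells. By library totals it was -1.08 (-1.92 to -0.28), or 2.11-fold lower. This window passed the size rule as lower under both scalings. With the interval's own background subtracted the ratio scaled by marked regions was -3.11, with few STAT3-deficient reads left and no interval computed. Within 500 bp, a window chosen after seeing the data, 17 wild-type and 2 STAT3-deficient reads were counted. On the same scale the ratio there was -3.38 (-6.54 to -1.31). For comparison, 179632 tiles of 4 kb along the genome held at least 50 reads, many of them at background level, since an even spread alone gives the 23.2 and 22.9 reads above. Of these, 4.36% were lower by the rule when scaled by marked regions and 0.666% when scaled by library totals, while 0.101% were higher when scaled by marked regions.

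Because both ends were counted in the same libraries, their ratios can be set against each other without choosing a scaling, since a factor common to a whole library cancels. The scalings by marked regions and by library totals differ by 0.32 on the log2 scale. A shift of that kind between marked and background reads does not cancel where the windows hold unlike shares of background. The log2 ratio at Il12rb2 was above that at Il23r by 1.49 (0.53 to 2.50), a conditional odds ratio of 2.81 (1.44 to 5.64). The reads of 1 library pair were compared here, not the conditions. With 5 kb on either side the difference was 1.45 (0.64 to 2.29), and with 1 kb it was 2.49 (1.11 to 4.06).

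**Figure D2:**
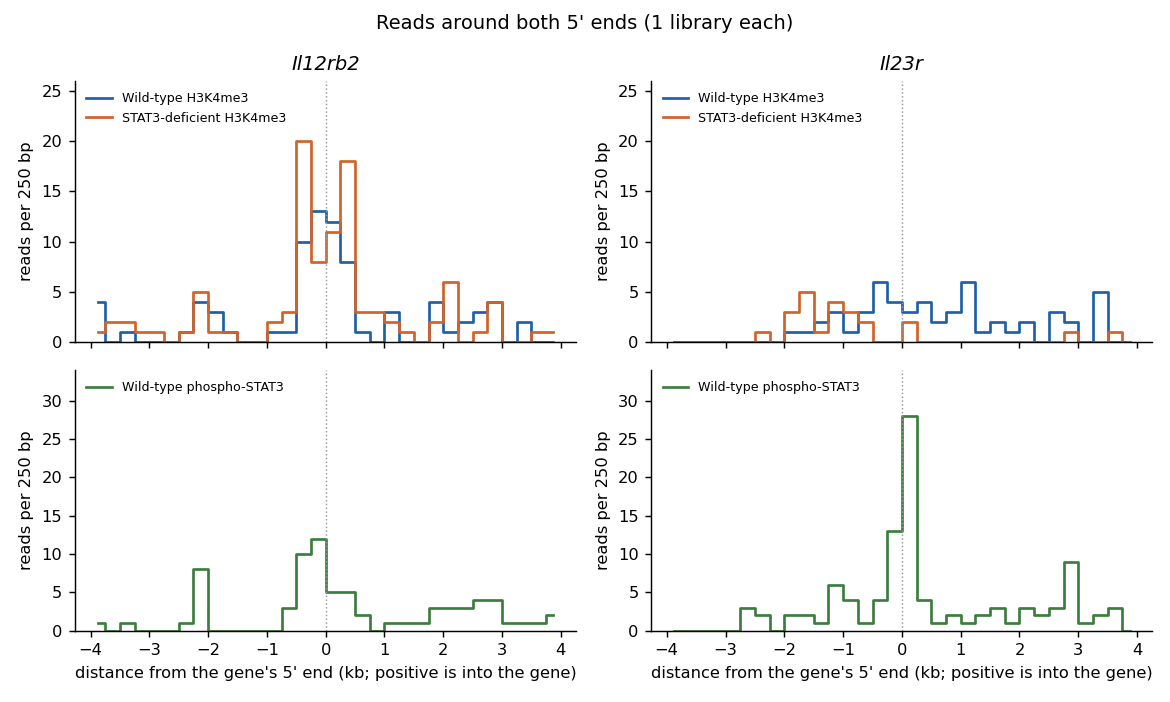
Reads per 250 bp (vertical axes) against the distance in kb from each 5′ end (horizontal axes, positive into the gene), for both H3K4me3 libraries (top) and phospho-STAT3 (bottom). Both genotypes form a peak at Il12rb2, and at Il23r the STAT3-deficient line lies at or near 0 from the 5′ end into the gene while the wild-type line does not.

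The distribution of reads along both ends differed. At Il12rb2 the mark was confined in these libraries to about 0.5 kb on either side, with 23 wild-type and 28 STAT3-deficient reads in the 0.5 kb upstream and 20 and 29 in the 0.5 kb downstream. At Il23r the wild-type reads were spread wider, with 10 in the 0.5 kb upstream and 29 in the first 3 kb of the gene. The STAT3-deficient library held 0 and 3 reads in these stretches, where an even spread gives 2.86 and 17.1. A count of 0 allows up to 3 reads, so the 0.5 kb upstream was not below the even level beyond counting error, while the 3 reads downstream were fewer than that level. Over those 3 kb the log2 ratio was -3.57 (-5.93 to -1.88) on the scale of marked regions and -3.25 (-5.61 to -1.56) on that of library totals. Farther upstream, from 0.5 to 2 kb before the Il23r 5′ end, the wild-type library held 11 and the STAT3-deficient library 18 reads, a log2 ratio by library totals of 0.73 (-0.43 to 1.96). The lower count was thus next to the 5′ end as given and in the 3 kb downstream of it. Since the ends are given to the nearest kb, the split into upstream and downstream is approximate. These stretches were set after the values were seen.

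The 3′ ends, counted the same way, had H3K4me3 near or below the even level. Within 2 kb of the Il12rb2 3′ end there were 13 wild-type and 20 STAT3-deficient reads, and within 2 kb of the Il23r 3′ end 22 and 24. Their log2 ratios by library totals were 0.65 (-0.43 to 1.78) and 0.15 (-0.75 to 1.05), both with intervals that include 0. In the Il23r gene beyond its first 3 kb, 298 wild-type and 267 STAT3-deficient reads gave -0.13 (-0.38 to 0.11) by library totals. Most reads there are background, for which the scaling by marked regions lowers every ratio by 0.32 and gave -0.45 (-0.70 to -0.21). In Il12rb2 beyond its first 3 kb, 366 and 403 reads gave 0.16 (-0.04 to 0.37) by library totals. Between the genes, 156 wild-type and 213 STAT3-deficient reads gave 0.47 (0.17 to 0.78) by library totals, an interval above 0, and 0.15 (-0.15 to 0.46) scaled by marked regions.

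**Figure D3:**
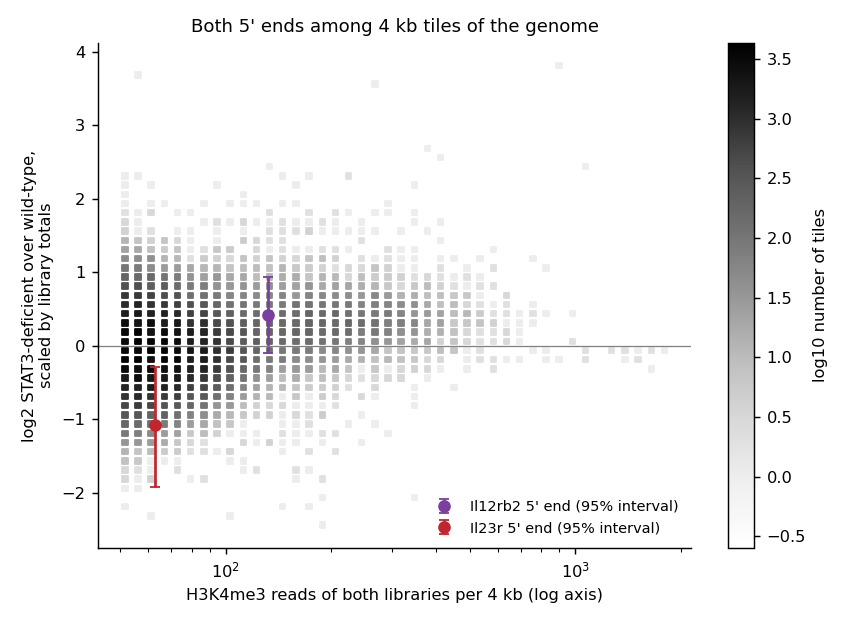
Log2 ratio of STAT3-deficient over wild-type H3K4me3 reads, scaled by library totals (vertical axis), against the reads of both libraries (horizontal log axis), for 179632 tiles of 4 kb (grey squares, darker for more tiles). Coloured points with 95% intervals show the 4 kb around the 5′ ends, at 0.42 for Il12rb2 and -1.08 for Il23r.

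The phospho-STAT3 library asks where STAT3 sat in and around both genes in wild-type cells. Sites were spread over both genes in equal number, and the highest was inside Il23r, 8.80 kb downstream of its 5′ end. A site is a 200 bp window, or a run of overlapping ones, that held 10 or more reads from both strands. Each window also passed a Poisson p of 1e-08 against the density of the 10 kb centred on it or the genome's mean density, whichever was higher. Those 10 kb include the reads of the site itself, which lowers the fold and excess of large sites. The interval held 14 of the 27061 sites of the genome. Of 11222 tiles of 235 kb along the genome, 1.51% held at least 14 sites, and the median tile held 1. No site lay in 5594 of these tiles, and the median was 4 among tiles with any site. Reads in sites made up 31.6% (Wilson 95% interval 29.4 to 33.9) of the phospho-STAT3 reads of the interval, against 8.90% over the genome.

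Phospho-STAT3 read density was higher over the genes than between them. The phospho-STAT3 library held 7.20 reads per kb over Il12rb2 and 8.91 over Il23r, against 4.96 between them, and the whole interval stood 1.43-fold over an even spread. Wild-type H3K4me3 reads were also denser over the genes, at 4.75 and 4.74 per kb against 3.32 between them. For STAT3-deficient H3K4me3 these densities were 5.34 and 3.91 against 4.53. Without an input library, the part of STAT3 binding in the broad phospho-STAT3 difference was not tested. Both H3K4me3 libraries stood below an even spread over the interval, at 0.701-fold for wild-type and 0.757-fold for STAT3-deficient cells. Within 2 kb of the 5′ ends there were 75 phospho-STAT3 reads at Il23r and 43 at Il12rb2, 3.91-fold and 2.24-fold the even level. At Il23r most of them lay close to the start, with 17 in the 0.5 kb upstream and 32 in the 0.5 kb downstream. At Il12rb2 these counts were 22 and 10. Both ends are given to the nearest kb, so a split at 0.5 kb does not settle which side of the start held more.

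Of the 14 sites, 5 lay inside Il12rb2 and 1 at its 5′ end, 2 between the genes, 5 inside Il23r and 1 at its 5′ end. They are numbered from 1 to 14 along the chromosome. Their highest windows held from 12 to 58 reads with a median of 22.5, against 21 over all sites of the genome. They stood 9.21-fold to 23.7-fold over the local expectation, with a median of 12.7 against 9.92. Neighbouring sites were 6.85 to 33.9 kb apart. At a point-like binding site, plus-strand reads lie to the left of minus-strand reads by about the fragment length. The gap between the median 5′ positions of both strands was 46 to 171 bp at the 14 sites, with a median of 108 bp, against 97.5 bp over all sites.

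A site is called strong where its excess, the reads of the highest window less the local expectation, is at least 26.1, which by definition holds for 25% of all sites. In the interval 5 of 14 sites were strong, and 2.56% of the tiles of 235 kb held at least 5. That count moved with the calling, to 2 at a Poisson p under 1e-12 or without the read shift and to 3 with local density over 5 kb. The highest, site 13 inside Il23r from 67432950 to 67433549, held 58 reads against 3.70 expected, 28 on the plus and 30 on the minus strand. It ranked 1023 by excess, and 3.78% of sites had a larger one. Also inside Il23r, 32.4 kb downstream of the 5′ end, site 11 from 67409350 to 67409799 held 37 reads, 23.7-fold over expectation.

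Between the genes, site 8 from 67365300 to 67365649 held 32 reads, 20-fold over expectation. It lies 39.45 kb upstream of the Il12rb2 5′ end and 7.55 kb beyond the Il23r 3′ end. Inside Il12rb2, site 5 from 67317050 to 67317499 and site 4 from 67297800 to 67298499 each held 29 reads in their highest window, at 8.70 and 28.05 kb downstream of the 5′ end. The local expectation, which includes a site's own reads, was 1.36 reads at site 5 and 2.52 at site 4, giving 21.3-fold and 11.5-fold. Site 4 was wider, and within 1 kb of its highest window lay 76 phospho-STAT3 reads, against 43 at site 5. The folds therefore do not rank these 2 sites. These 5 strong sites included none at a 5′ end.

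At the Il23r 5′ end, site 14 from 67441750 to 67442149 held 28 reads, 13.3-fold over expectation and centred on the end as given to the nearest kb. Its excess of 25.9 was just under the limit for strong sites, while that of site 4 was just over it at 26.5. At the Il12rb2 5′ end, site 6 from 67326150 to 67326399 held 14 reads, 9.21-fold over expectation, and 90.6% of all sites had a larger excess. It was no longer called at a Poisson p under 1e-12 or with local density over 5 kb. This site lies in the H3K4me3 region, and 52.5% of all marked regions overlapped a site. It was also called in 1 of the H3K4me3 libraries, and the other 13 sites were called in neither. Of all sites, 12.9% were called in both H3K4me3 libraries, and none of the 14 was. No input library was analysed here, so the part of open chromatin in the reads of site 6 was not tested.

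The remaining 7 sites held 12 to 23 reads. The weakest, site 7 between the genes from 67346200 to 67346399, held 12 reads of which 2 were on the plus strand. Inside Il12rb2, site 1 from 67242050 to 67242399 held 21 reads, site 2 from 67252000 to 67252349 held 23 and site 3 from 67285850 to 67286199 held 18. Inside Il23r, site 9 from 67374900 to 67375199 held 17, site 10 from 67381700 to 67382099 held 22 and site 12 from 67425600 to 67425899 held 22. Each of these gene-body sites had at least 6 reads on either strand, so none of them rested on 1 strand. Summed over highest windows, the 6 sites of Il23r held 184 reads and the 6 of Il12rb2 held 134, and site 13 alone accounts for more than that gap.

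**Figure D4:**
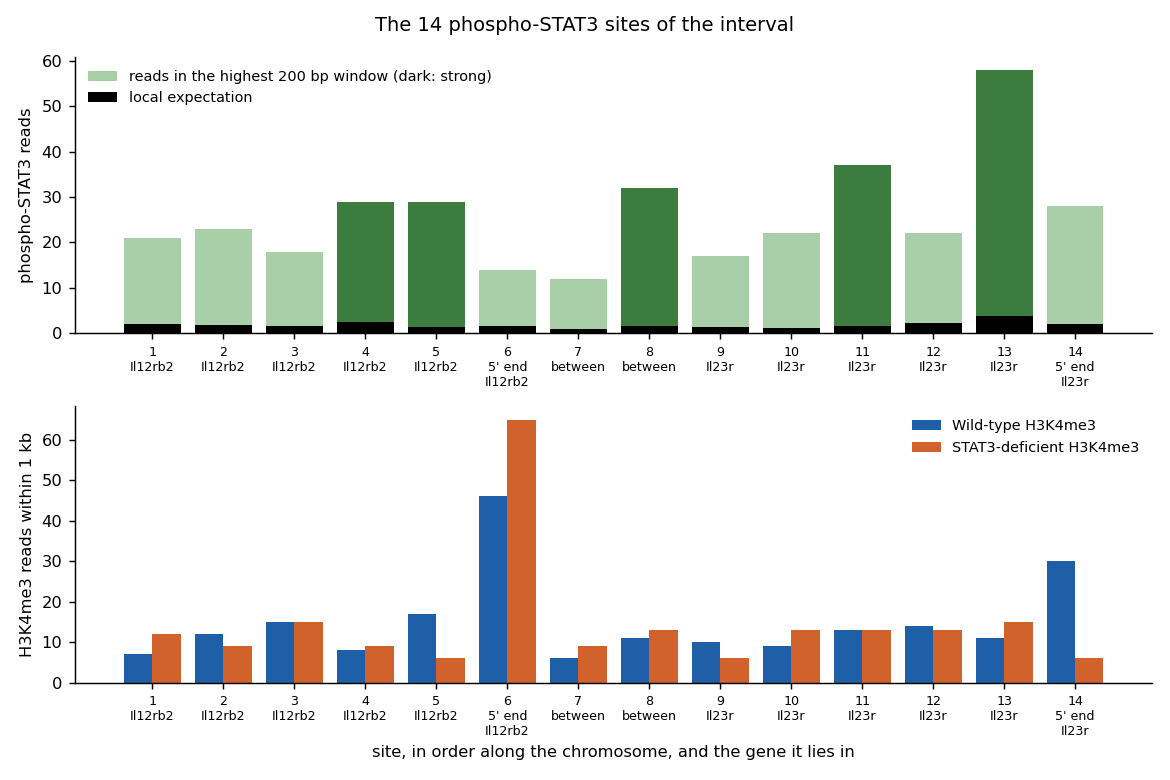
Reads in the highest 200 bp window of each of the 14 phospho-STAT3 sites (top, dark for strong sites, with the local expectation in black) and H3K4me3 reads within 1 kb in both genotypes (bottom), in order along the chromosome. Site 13 is the highest with 58 reads, and the genotypes differ most in number of reads at site 14, with 30 wild-type and 6 STAT3-deficient reads.

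**Figure D5:**
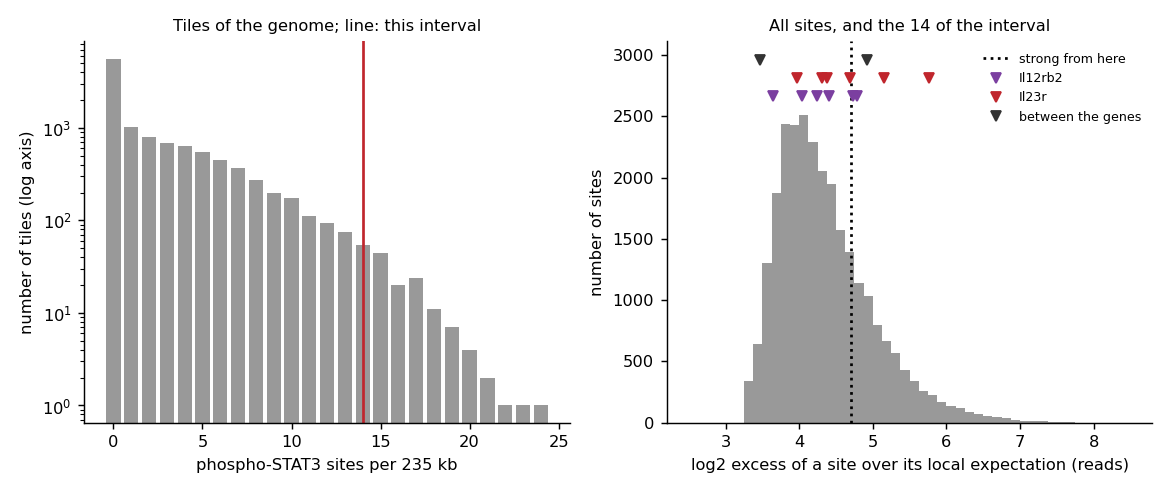
Left, number of 235 kb tiles of the genome (vertical log axis) by phospho-STAT3 sites held (horizontal axis), with a line at the 14 of the interval. Right, number of sites by the log2 of their excess in reads, with triangles for the 14 sites by gene and a dotted line where strong sites begin. Of the 14 triangles, 5 lie at or beyond that line.

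With all libraries together, H3K4me3 was counted within 1 kb of each phospho-STAT3 site. At the 12 sites away from both 5′ ends it summed to 133 wild-type and 133 STAT3-deficient reads, close to the even levels of 139 and 137. Against the even level the summed mark was thus not raised. The interval's own background was lower, at 15.3 wild-type and 16.1 STAT3-deficient reads per 4 kb, and both sums were above it. Whether the mark was raised at these sites therefore depends on the level chosen. The log2 ratio was 0.02 (-0.33 to 0.38) by library totals and -0.30 (-0.65 to 0.06) scaled by marked regions. Most of these sites showed no detectable difference between genotypes. At site 13, the highest, there were 11 wild-type and 15 STAT3-deficient reads. Site 5 inside Il12rb2 was the exception, with 17 and 6 reads and a log2 ratio by library totals of -1.48 (-3.11 to -0.07), 1 of 12 intervals that left out 0 with no adjustment for their number.

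At the 5′ ends, site 14 of Il23r had 30 wild-type and 6 STAT3-deficient H3K4me3 reads within 1 kb, with log2 ratios of -2.62 (-4.17 to -1.33) on the scale of marked regions and -2.30 (-3.85 to -1.01) on that of library totals. Site 6 at Il12rb2 had 46 and 65 reads, with ratios of 0.20 (-0.36 to 0.78) and 0.52 (-0.04 to 1.10). These counts share their reads with the 5′ end windows above and are not a separate measurement.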

How the data were processed

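Deposited files gave the position and strand of 1 aligned read of 25 bp per line, on mm9 per the submitters' processing notes, which also name SICER. Which aligner was used, and which SICER release, is not given in the sources used here. No position and strand held more than 1 read, so repeats had been removed before deposit. Interval and gene ends were given to the nearest kb on that build. Each read was counted 75 bp downstream of its start, near the fragment centre. Windows of 200 bp with a Poisson p under 1e-05 over a mappable share of 0.8 were joined within 600 bp into H3K4me3 regions of at least 2 windows. Site windows moved in steps of 50 bp. Region and site calling, scaling and intervals ran on the whole genome. The code for each was tested on simulated reads or counts with planted answers, not on known sites of these cells. Il12rb2, Il23r, and all H3K4me3 regions and phospho-STAT3 sites called in the interval are given with their positions. The members, lists and motifs were chosen with earlier results of these data known. Alternatives covered scaling, subtracted background, count windows, read shift and calling thresholds. Python 3.11.15, numpy 2.4.6, scipy 1.17.1, pandas 2.3.3 and matplotlib 3.10.9 were used.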

Additional observations from a re-analysis of the deposited data

How the results depend on the processing

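The direction at the Il23r 5′ end, and that of its difference from Il12rb2, was the same under every alternative run, but their size was not. With the interval's own background subtracted (15.3 wild-type and 16.1 STAT3-deficient reads per 4 kb), the log2 ratio at Il23r was -3.11 and the difference 3.31. Few STAT3-deficient reads were left at Il23r, and no interval was computed for these values. With 500 bp on either side, chosen after seeing the data, ratio and difference were -3.38 and 3.47, from 17 wild-type and 2 STAT3-deficient reads at Il23r. At Il12rb2 the ratio lay between 0.03 and 0.42 with 1 choice changed at a time, and was 0.59 (0.03 to 1.16) with both library totals and 1 kb on either side. The interval held 13 to 16 sites. The number of strong sites was 2 at a Poisson p under 1e-12, 3 with the local density over 5 kb and 2 without a read shift, and 7 at a p under 1e-05. All 5 strong sites and site 14 were still called under each of these. Of the 14 sites, 12 were still called at 1e-12, where sites 6 and 7 were lost, and 13 with 5 kb, where site 6 was lost. Under both settings site 4 was split, from 67297800 to 67298149 and from 67298150 to 67298449, which adds to the site count. The H3K4me3 region count was 1 throughout. The Il23r values rest on 63 reads of both genotypes in 4 kb, and on 1 library each. No paired analysis was possible because each group had 1 library.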

Other observations

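The nearest H3K4me3 region below the interval did not differ by the size rule. This region, from 67216200 to 67218599 on chromosome 6, had 106 reads from wild-type and 162 from STAT3-deficient cells, with a scaled log2 ratio of 0.32 (-0.05 to 0.68). Reads that differ from the reference made up 2.93% (Wilson 95% interval 2.03 to 4.20) of wild-type H3K4me3, 2.46% (1.67 to 3.60) of STAT3-deficient H3K4me3 and 3.47% (2.69 to 4.48) of phospho-STAT3 reads in the interval, and these intervals overlap.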
